A study of Mus musculus with 36 samples.

Results

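Epididymal white adipose tissue (eWAT) was compared between Adipoq-CCL19-KI mice (CCL19-KI) and wild-type (WT) mice that had been fed a 40% high-fat diet (HFD) for 10 weeks and had carried a dental ligature for the last 2 weeks. The members were chosen by their group labels alone, and they are 6 of the 36 RNA-seq libraries in the series, with 3 mice in each of 2 of the 12 groups. In the other groups the same genotypes were kept on a normal diet (ND), the 40% HFD or a 60% HFD, and the ligature, which is tied around a tooth to induce periodontitis, was present or absent. All mice were male, of the C57BL/6 strain, and 14 weeks old when the ligature was placed. The design text of the series mentions the ligature for every group, whereas the labels name it for 18 of the 36 mice. The study's methods, like the labels, describe mice with and without a ligature on each diet, and the labels were followed here. CCL19-KI mice were homozygous for a *Ccl19* gene inserted by genome editing into the *Adipoq* locus, whose promoter is active in adipocytes, and the insertion was designed to leave *Adipoq* intact. The homozygous knock-in line and the WT line were kept by separate matings, so differences between these lines and the effect of the insertion cannot be told apart. Lymph nodes were removed from the fat pad before RNA was extracted, and the libraries were depleted of ribosomal RNA rather than selected for poly(A).

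White adipose tissue stores triglyceride in adipocytes and secretes hormones such as adiponectin and leptin, and it also contains macrophages, lymphocytes, fibroblasts and vessels. CCL19 attracts cells that carry the receptor CCR7, which include naive T cells, B cells and mature dendritic cells. Lymphocytes can gather in visceral fat in small clusters that contain B cells and the chemokine CXCL13.

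Values are normalized CPM (counts scaled to library size) as deposited, and they returned whole reads for 100% of values within a tolerance of 0.01 read. The 6 libraries held 12824995 to 15146500 reads, 1 read was worth 0.0633 to 0.0802 normalized CPM, and a value of 10 stood for 125 to 158 reads. The adipocyte markers *Adipoq*, *Plin1*, *Cidec*, *Fabp4*, *Lep* and *Pparg* were present in every library, with summed levels of 16600 to 21600 in WT mice and 10300 to 14800 in CCL19-KI mice. Markers of other tissues were uneven between mice. The summed level of 7 hepatocyte markers ran from 377 to 20200 in WT mice and from 2310 to 34500 in CCL19-KI mice, and that of 5 smooth muscle markers from 168 to 538 and from 102 to 165. In WT replicate 1, *Crisp1* of the epididymal epithelium reached 223, against at most 0.642 in the other 5 libraries. In WT replicate 2, the summed level of 5 germ cell markers was 53.3, against at most 2.93 elsewhere, and that of 6 B cell markers was 129, against at most 24.3 elsewhere. Nothing in the labels ties these libraries to a batch. Each library was 1 mouse, and with 3 mice against 3 an exact permutation test of a single gene cannot give a two-sided p below 0.1, so calls come from limma fitted across all genes of the 18 ligatured mice.

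Of 16653 genes tested, 188 were lower and 72 were higher in CCL19-KI mice by the criteria of the study, an unadjusted p no greater than 0.05 together with a ratio, taken here from log2(normalized CPM + 1), no smaller than 1.5 or no greater than 0.67 (differentially expressed genes, DEGs). These are 1.13% and 0.432% of the genes tested. With Benjamini-Hochberg adjustment, 7 genes (0.042%) had an adjusted p below 0.05 in limma, 1 of them lower and 6 higher. The median log2 fold change of all genes was 0.01. The 3 CCL19-KI mice lay below the 3 WT mice in 930 genes (5.58%) and above them in 558 genes (3.35%). Among the 188 lower DEGs, the groups did not overlap in 141, and 40 met the criteria again whichever mouse was left out. WT replicate 2 was the highest of the 6 libraries in 118 of the 188 lower DEGs, and without it 140 genes were lower and 253 were higher. RNA in a tissue extract comes from all its cells, so fewer cells of a type and less RNA per cell cannot be told apart in any of the results that follow. Genes of 1 list can also vary together between mice, so counts of list members are not independent results.

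Genes with a mean of at least 10 normalized CPM over the 6 mice numbered 9591, and 79 of them (0.824%) were lower and 27 (0.282%) higher. Another 95 lower DEGs had a mean between 1 and 10 and 14 had a mean below 1. Of the 79 abundant lower genes, 64 had groups that did not overlap and 16 met the criteria whichever mouse was left out. By function, 11 of the 79 encode replication-dependent histones, 7 encode cytoplasmic ribosomal proteins, 2 are on the list of small nuclear and nucleolar RNAs, and 9 have no name in the annotation used. A further 43 named genes belonged to no list. The plot of expression level against genotype difference shows both sets.

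**Figure D1:**
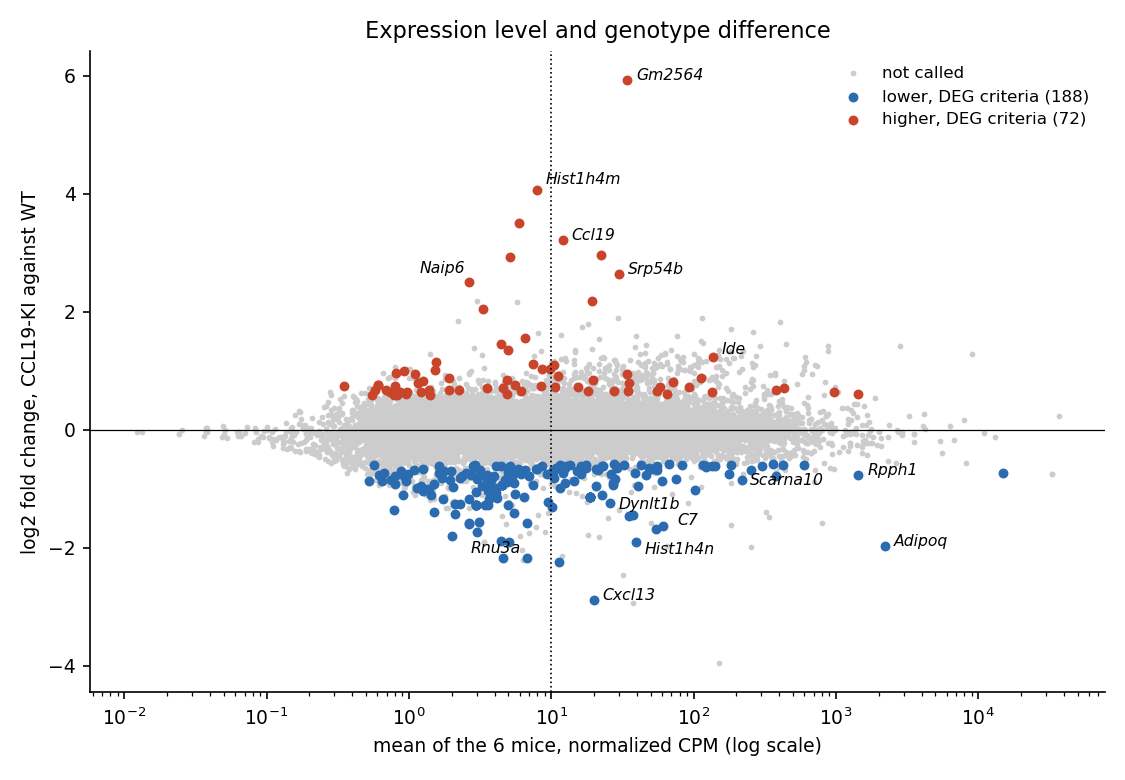
Mean of the 6 mice (normalized CPM, log axis) against the log2 fold change of CCL19-KI over WT mice for 16653 genes, with the 188 lower DEGs in blue, the 72 higher DEGs in red and the level of 10 as a dotted line. Lower DEGs lie mostly between fold changes of -0.5 and -2 at all levels, whereas the points above 2 are a few genes such as *Gm2564*, *Hist1h4m* and *Ccl19*.

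*Adipoq*, which encodes adiponectin and is the locus that carries the insertion, was the most abundant named lower gene. Its level was 2790, 3820 and 3940 in WT mice and 973, 572 and 1250 in CCL19-KI mice. Every CCL19-KI mouse was below every WT mouse, and the log2 fold change was -1.97 with a standard error (SE) of 0.37 and an adjusted p of 0.138 in limma. The criteria were met whichever mouse was left out. In the ligatured mice on the ND the change was -2.19 (adjusted p of 0.00559), on the 60% HFD it was -1.43 (adjusted p of 0.499), and on the 40% HFD without ligature it was -0.87 (adjusted p of 0.747). None of these changes differed from that of the ligatured mice on the 40% HFD by a test of the difference, with adjusted p of 0.914, 0.944 and 1.0 in the same order.

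*Ccl19* itself was at 1.68, 0.633 and 2.01 in WT mice and at 20.8, 12.7 and 34.6 in CCL19-KI mice, a log2 fold change of 3.22 (SE 0.41, adjusted p of 0.00479 in limma). *Gm2564*, which shares 78% of its 31-base words with other genes, chiefly *Ccl19*, was at 0, 0 and 0.160 in WT mice and at 56.4, 41.3 and 108 in CCL19-KI mice. These values are 0, 0 and 2 reads in WT mice and 750, 584 and 1476 reads in CCL19-KI mice. Reads of the inserted gene could have been assigned to either, so the split between them is uncertain.

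Of 27 genes of adipocyte identity, *Adipoq* was the 1 lower DEG, against 1.13% of all genes. The median log2 fold change was -0.08, with a range of -1.97 to 0.27. The groups did not overlap in the lower direction in 3 of the 27 (11.1%), against 5.58% of all genes, and these were *Adipoq*, *Cidec* and *Fabp4*. *Cidec*, which enlarges lipid droplets, was at 2660, 3000 and 3760 in WT mice and at 2490, 1570 and 2360 in CCL19-KI mice, a change of -0.57 (SE 0.30) that did not meet the criteria. *Fabp4*, a carrier of fatty acids, was at 8150, 10900 and 10100 in WT mice and at 7670, 5870 and 6280 in CCL19-KI mice and did not meet them either. *Plin1*, which coats the lipid droplet, was at 1170, 824 and 1490 in WT mice and at 1290, 786 and 1390 in CCL19-KI mice. *Lep*, which encodes leptin, was at 1690, 1080 and 2210 in WT mice and at 2290, 1380 and 573 in CCL19-KI mice, so the groups overlapped. *Retn*, which encodes resistin, had a fold change of -0.67 (SE 0.43) and *Cfd*, which encodes adipsin, of -0.53 (SE 0.61), and neither met the criteria. Lists for lipolysis and lipid droplets (25 genes), fatty acid uptake and triglyceride synthesis (26), de novo lipogenesis (20), fatty acid oxidation (29) and thermogenic adipocytes (16) held no DEG. Their medians were -0.01, 0.00, 0.04, 0.21 and 0.01. Of 27 hepatocyte genes none was called and the median was 0.95, with the groups overlapping in the summed markers given above.

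Of the 26 secreted adipokines and genes of the insulin-like growth factor axis tested, 3 were lower, against 1.13% of all genes. Besides *Adipoq* these were *Pappa* and *Pappa2*, proteases that cleave binding proteins of insulin-like growth factors. *Pappa2* was at 7.54, 2.72 and 16.3 in WT mice and at 0.602, 0.919 and 2.41 in CCL19-KI mice. The groups did not overlap, and the change was -1.90 (SE 0.54, adjusted p of 0.736 in limma). *Pappa* was at 4.68, 3.48 and 1.76 in WT mice and at 0.903, 1.48 and 1.90 in CCL19-KI mice, with overlapping groups and a fold change of -0.79 (SE 0.34) that was not called without WT replicate 1 or 2 or without CCL19-KI replicate 1 or 2.

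*Dynlt1b*, a light chain of the dynein motor that carries cargo along microtubules, was the 1 lower gene with an adjusted p below 0.05. Its level was 39.2, 36.3 and 35.3 in WT mice and 14.4, 16.3 and 14.6 in CCL19-KI mice. The groups were far apart, with a log2 fold change of -1.24 (SE 0.13, adjusted p of 8.03e-04 in limma and 0.00236 in edgeR). In the ligatured mice on the ND the change was -1.07 (adjusted p of 3.84e-04), and without ligature on the 40% HFD and with ligature on the 60% HFD it was -0.70 and -0.62 (adjusted p of 0.727 and 0.242). *Dynlt1b* lies at chr17:6430112-6436296 on the plus strand (GENCODE M21, GRCm38) and belongs to a family of near-identical copies, so 86.9% of its 31-base words occur in other genes. Its coding sequence of 342 bases differs from that of *Dynlt1a*, *Dynlt1c* and *Dynlt1f* at 1 base, A21C, counted from the first base of the start codon with the base of *Dynlt1b* first. The first 60 bases of the coding sequences are shown with that base in capitals, since they show how little separates the gene that was lower from a copy that was not.

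*Dynlt1b*: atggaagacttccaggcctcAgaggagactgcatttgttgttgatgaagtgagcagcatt
*Dynlt1c*: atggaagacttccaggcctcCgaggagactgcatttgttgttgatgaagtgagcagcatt

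The copies *Dynlt1a*, *Dynlt1c* and *Dynlt1f* had fold changes of 0.03, -0.08 and -0.05, and none met the criteria. Summed over the 4 copies, which does not depend on how reads were divided among them, the level was 64.6, 69.6 and 55.3 in WT mice and 41.4, 39.0 and 40.3 in CCL19-KI mice, again without overlap. Of 15 dynein light and intermediate chain genes tested, *Dynlt1b* was the 1 lower DEG, against 1.13% of all genes, and none was higher.

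Replication-dependent histone genes supply the core and linker histones that package newly made DNA, and their transcripts end in a stem-loop rather than a poly(A) tail. Of 63 tested, 17 were lower and 1 was higher, against 1.13% and 0.432% of all genes, and 55 had a negative fold change. The median was -0.42, and the groups did not overlap in the lower direction in 20 (31.7%), against 5.58% of all genes. The summed level of the list was 1850, 2030 and 1680 in WT mice and 1360, 1470 and 1270 in CCL19-KI mice, so each CCL19-KI mouse lay below each WT mouse. The number of lower histone DEGs was 6 without WT replicate 2, 11 without CCL19-KI replicate 3 and 30 without WT replicate 3. Without ligature on the 40% HFD the median was -0.25 and 3 genes were fully separated downward, against 6.86% of all genes there. In ligatured mice on the ND and on the 60% HFD the medians were 0.11 and 0.22, with 1 gene separated downward in each, against 10.1% and 4.81% of all genes. Separated upward were 1 without ligature, 6 on the ND and 18 on the 60% HFD, against 7.52%, 8.55% and 7.28% of all genes. In limma 0 histone genes had an adjusted p below 0.05 for a difference between these comparisons. At an unadjusted p below 0.05 there was 1 for the ligature, against 681 of 17852 genes tested. There were 17 for the ND and 26 for the 60% HFD, for which the share of all genes at that cut is not given here.

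Linker histones were among them. *Hist1h1c* was at 210, 265 and 200 in WT mice and at 138, 115 and 145 in CCL19-KI mice, a fold change of -0.76 (SE 0.22, adjusted p of 0.736 in limma), and it met the criteria whichever mouse was left out. *Hist1h1b*, *Hist1h1d* and *Hist1h1e* were also lower, with changes of -0.66, -0.83 and -0.64, and each lost its call when WT replicate 2 was left out. Of the core histones, *Hist1h4c* was at 75.2, 84.7 and 71.9 in WT mice and at 42.0, 51.6 and 33.4 in CCL19-KI mice, a change of -0.87 (SE 0.22), and it too met the criteria whichever mouse was left out. *Hist2h2aa2* fell by 1.46 on the log2 scale (SE 0.48), but it was at 30.0, 20.6 and 8.85 in CCL19-KI mice and was not called without CCL19-KI replicate 3. All of its 31-base words occur in other genes. Of the 28 cell proliferation genes tested, *Cenpf* was the 1 lower DEG, against 1.13% of all genes. Their median was -0.11 and 22 were negative, against 47.9% of all genes.

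A pair of histone H4 genes on chromosome 13 moved in opposite directions. *Hist1h4n* (chr13:21831767-21832196, minus strand) was at 59.6, 76.9 and 51.7 in WT mice and at 13.8, 21.1 and 13.7 in CCL19-KI mice, a fold change of -1.90 (SE 0.32, adjusted p of 0.0574 in limma). *Hist1h4m* (chr13:21811746-21812147, plus strand) had no read in any WT mouse and was at 16.0, 17.7 and 13.7 in CCL19-KI mice, at least 65.7-fold higher against a floor of 3 reads per library (adjusted p of 1.39e-05 in limma). *Hist1h4m* was also higher in the other 3 comparisons, with changes of 4.24, 4.39 and 4.02. The coding sequences of the 2 genes, 312 bases long, are identical, and the start of *Hist1h4n*, which *Hist1h4m* repeats base for base, is printed to show that reads within it cannot be told apart.

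*Hist1h4n*: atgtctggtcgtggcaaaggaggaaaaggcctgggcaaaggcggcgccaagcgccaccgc

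Summed over both genes the level was 59.6, 76.9 and 51.7 in WT mice and 29.9, 38.9 and 27.3 in CCL19-KI mice. The sum was lower in every CCL19-KI mouse, by a smaller factor than *Hist1h4n* alone, and the values of the separate genes are uncertain.

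Small structured RNAs guide the modification of other RNAs, process transfer RNA precursors or serve in Ro particles. All 16 tested had a negative fold change, against 47.9% of all genes, 8 were lower DEGs, against 1.13%, and 13 (81.2%) were fully separated downward, against 5.58%. Their median was -0.74, against 0.21 without ligature on the 40% HFD and 0.27 and -0.29 in ligatured mice on the ND and the 60% HFD. *Rpph1*, the RNA of ribonuclease P, was at 1460, 2360 and 1650 in WT mice and at 865, 1170 and 1150 in CCL19-KI mice, a change of -0.76 (SE 0.31, adjusted p of 0.859 in limma) that was not called without WT replicate 2 or without CCL19-KI replicate 1. *Scarna10*, a guide RNA of Cajal bodies, was at 214, 376 and 259 in WT mice and at 151, 172 and 135 in CCL19-KI mice, a change of -0.85 (SE 0.24), and met the criteria whichever mouse was left out. It lies within *Ncapd2*, with which it shares 31-base words. *Rnu3a*, the U3 RNA that takes part in cutting the ribosomal RNA precursor, was at 8.49, 16.6 and 10.1 in WT mice and at 1.20, 1.91 and 2.12 in CCL19-KI mice, a change of -2.18 (SE 0.43, adjusted p of 0.198 in limma). It shares all its words with other U3 copies, so the copy is uncertain. Also lower were the Ro-associated *Rny1* and *Rny3* (-0.73 and -0.85), *Snord22* (-0.72), *Snora74a* (-0.67) and *Rn7s6* (-0.75), of which *Snora74a* alone met the criteria whichever mouse was left out. *Snora74a* and *Snord22* share 100% of their 31-base words with other genes, *Rpph1* 70.2% and *Rn7s6* 56.3%, so the assignment of their reads is uncertain. Without WT replicate 2, or without CCL19-KI replicate 1, 4 of the list were lower DEGs.

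Some abundant lower features had no name. ENSMUSG00000118815 was at 21.2, 37.7 and 20.5 in WT mice and at 11.1, 9.12 and 13.3 in CCL19-KI mice (-1.14, SE 0.39), with 5 other IDs holding the same values. It was not called without WT replicate 2. ENSMUSG00002076161, the most abundant lower DEG with a mean of 14971, changed by -0.74 (SE 0.34, adjusted p of 0.914 in limma). Of the 188 lower DEGs, 14 held the same reads as another of them, which leaves 177 distinct profiles.

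Cytoplasmic ribosomal proteins build the small and large subunits of the ribosome. Of 83 tested, all with a mean of at least 10, 81 had a negative fold change, and the 3 CCL19-KI mice lay below the 3 WT mice in 71 (85.5%), against 5.58% of all genes. The median fold change was -0.39 with a range of -0.76 to 0.36. Of the 83, 7 were lower DEGs and none was a higher DEG, against 0.824% and 0.282% of all genes with a mean of at least 10. The summed level of the 83 was 21400, 25600 and 22100 in WT mice and 17200, 18700 and 15800 in CCL19-KI mice. Every CCL19-KI mouse was below every WT mouse in this sum. The medians elsewhere were -0.28 without ligature on the 40% HFD, -0.08 in ligatured mice on the ND and -0.19 on the 60% HFD. In the same order 83, 62 and 80 of the 83 genes were negative, against 57.5%, 53.8% and 50.5% of all genes. Fully separated downward were 21, 0 and 14 of them, against 6.86%, 10.1% and 4.81% of all genes. In limma 0 of the 83 had an adjusted p below 0.05 for the difference between mice with and without ligature. At an unadjusted p below 0.05 there were 3, against 681 of 17852 genes tested. For the difference from the ND the counts were 0 and 16, and the share of all genes is not given here.

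**Figure D2:**
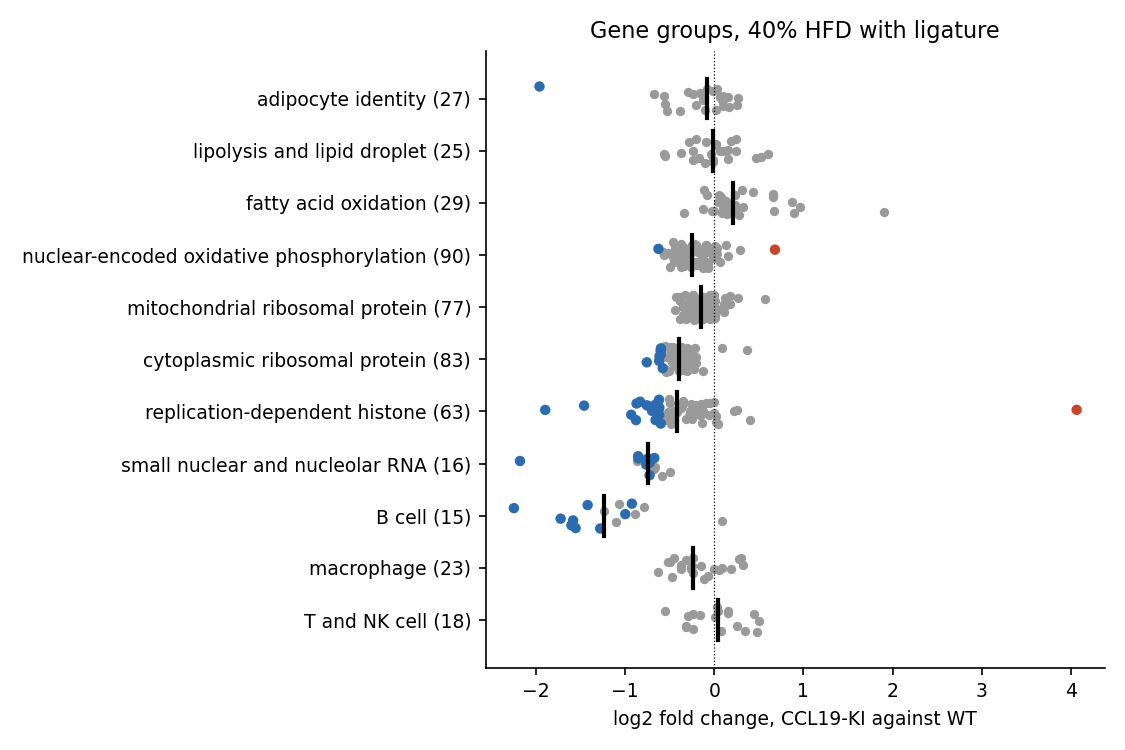
Log2 fold change of CCL19-KI over WT mice for each gene of 11 lists, with lower DEGs in blue, higher DEGs in red, other genes in grey, the number of genes in brackets and a bar at each median. Medians run from -1.23 for B cell genes to 0.21 for fatty acid oxidation.

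The 7 called were *Rpl22l1*, *Rpl34*, *Rps12*, *Rps24*, *Rpl41*, *Rpl36* and *Rps7*. *Rpl36* shares 94.1% of its 31-base words with other genes, so its assignment is uncertain, and the others share 7.86% to 30.5%. *Rpl41* was at 664, 824 and 677 in WT mice and at 458, 509 and 458 in CCL19-KI mice, a change of -0.60 (SE 0.16, adjusted p of 0.67 in limma). *Rps12*, of the small subunit, was at 334, 417 and 342 in WT mice and at 229, 262 and 220 in CCL19-KI mice, a change of -0.61 (SE 0.14, adjusted p of 0.466 in limma). *Rpl22l1*, a paralogue of *Rpl22*, was at 47.9, 68.1 and 60.4 in WT mice and at 39.6, 29.2 and 34.1 in CCL19-KI mice, a change of -0.76 (SE 0.20), and it was the 1 of the 7 that met the criteria whichever mouse was left out. Without WT replicate 2 it was the only one of the 83 still called, whereas 2 were called without CCL19-KI replicate 3, and 17 without WT replicate 1 or without CCL19-KI replicate 2. The exceptions in sign were *Rpl10*, at 58.0, 48.8 and 49.2 in WT mice and 67.3, 78.6 and 56.8 in CCL19-KI mice, and *Rpl7l1*, with changes of 0.36 and 0.08.

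Ribosomal protein transcripts usually begin with a run of pyrimidines that links their translation to nutrient signals. Start windows from RefSeq (GRCm38.p6, 60 bases before to 20 after the start) of 6 of the 7 are printed, with capitals marking the longest run of C and T that reaches within 5 bases of the start, since these are the called members of the most uniform group.

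*Rpl22l1* (chr3:28805448-28805527, plus): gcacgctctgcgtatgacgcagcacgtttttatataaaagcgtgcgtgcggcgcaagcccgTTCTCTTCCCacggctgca
*Rpl34* (chr3:130730318-130730397, minus): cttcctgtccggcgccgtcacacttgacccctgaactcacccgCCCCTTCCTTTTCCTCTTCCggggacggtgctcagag
*Rps12* (chr10:23787190-23787269, minus): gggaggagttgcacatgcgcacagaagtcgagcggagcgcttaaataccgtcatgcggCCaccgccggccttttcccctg
*Rps24* (chr14:24490618-24490697, plus): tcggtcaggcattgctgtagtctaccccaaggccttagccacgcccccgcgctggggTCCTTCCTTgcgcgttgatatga
*Rpl41* (chr10:128549149-128549228, minus): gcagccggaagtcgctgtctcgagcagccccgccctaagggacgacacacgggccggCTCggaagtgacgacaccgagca
*Rps7* (chr12:28635934-28636013, minus): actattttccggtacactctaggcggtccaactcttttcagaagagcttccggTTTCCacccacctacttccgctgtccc

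The marked runs were 10, 20, 2, 9, 3 and 5 bases long in the order printed. Such a run of at least 8 bases was present in 25 of 61 ribosomal protein genes with a window (41%) and in 1467 of 11802 genes tested (12.4%). Among lower DEGs with a mean of at least 10 it was present in 7 of 38 (18.4%). These lower DEGs include the printed genes, of which *Rpl22l1*, *Rpl34* and *Rps24* had such a run, so ribosomal protein genes make up part of that share.

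Most genes of oxidative phosphorylation, of mitochondrial ribosomes and of the mitochondrial genome had small negative fold changes, against 47.9% of all genes, and few were called. Fatty acid oxidation genes went the other way, with 6 of 29 negative and a median of 0.21. Of 90 nuclear-encoded oxidative phosphorylation genes, 80 had a negative fold change with a median of -0.25, 26 (28.9%) were fully separated downward against 5.58% of all genes, and 1 was a lower and 1 a higher DEG, against 1.13% and 0.432%. Without ligature on the 40% HFD the median was also -0.25, with 82 of the 90 negative, and in ligatured mice on the ND and the 60% HFD it was -0.16 and -0.06. *Atp5e*, a subunit of ATP synthase, was at 126, 150 and 166 in WT mice and at 96.4, 111 and 79.2 in CCL19-KI mice, a change of -0.63 (SE 0.22, adjusted p of 0.859 in limma) that was not called without WT replicate 3 or without CCL19-KI replicate 3. *Uqcc2*, an assembly factor of complex III, was at 35.0, 37.5 and 35.0 in WT mice and at 21.2, 23.4 and 22.7 in CCL19-KI mice, a change of -0.65 (SE 0.16), and met the criteria whichever mouse was left out. *Pet100*, an assembly factor of cytochrome c oxidase, changed by -0.67 (SE 0.15) and was not called without WT replicate 2. Of 77 mitochondrial ribosomal protein genes, 65 were negative (median -0.15) and none was called, with medians of -0.29 without ligature and -0.18 and -0.07 in ligatured mice on the ND and the 60% HFD. All 13 mitochondrially encoded genes were negative (median -0.27) with none called, and their medians in the same 3 comparisons were 0.05, -0.31 and 0.24.

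Other lower genes with a mean of at least 10 served varied functions. *Phpt1*, a phosphohistidine phosphatase, was at 14.0, 12.8 and 13.4 in WT mice and at 8.27, 8.20 and 8.11 in CCL19-KI mice, a change of -0.64 (SE 0.12, adjusted p of 0.119 in limma). *Cdc42bpg*, a kinase bound by the small GTPase Cdc42, was at 62.8, 41.3 and 59.0 in WT mice and at 29.6, 25.6 and 26.6 in CCL19-KI mice, a change of -0.95 (SE 0.20, adjusted p of 0.292 in limma). *Trpv2*, a cation channel, *Ntng2*, a netrin-related membrane protein, *Tmem267*, a membrane protein, and *Wfdc17*, a small secreted protein made by macrophages, changed by -0.94, -0.74, -0.89 and -1.10. These 6 had groups that did not overlap and met the criteria whichever mouse was left out. *Bag1*, a cochaperone of Hsp70, was at 153, 155 and 181 in WT mice and at 105, 107 and 105 in CCL19-KI mice, a change of -0.62 (SE 0.13), but was not called without WT replicate 3. *Enpp2*, which encodes autotaxin, the enzyme that makes lysophosphatidic acid, was at 245, 344 and 341 in WT mice and at 165, 148 and 282 in CCL19-KI mice, a change of -0.69 (SE 0.23) that was not called without CCL19-KI replicate 2.

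**Figure D3:**
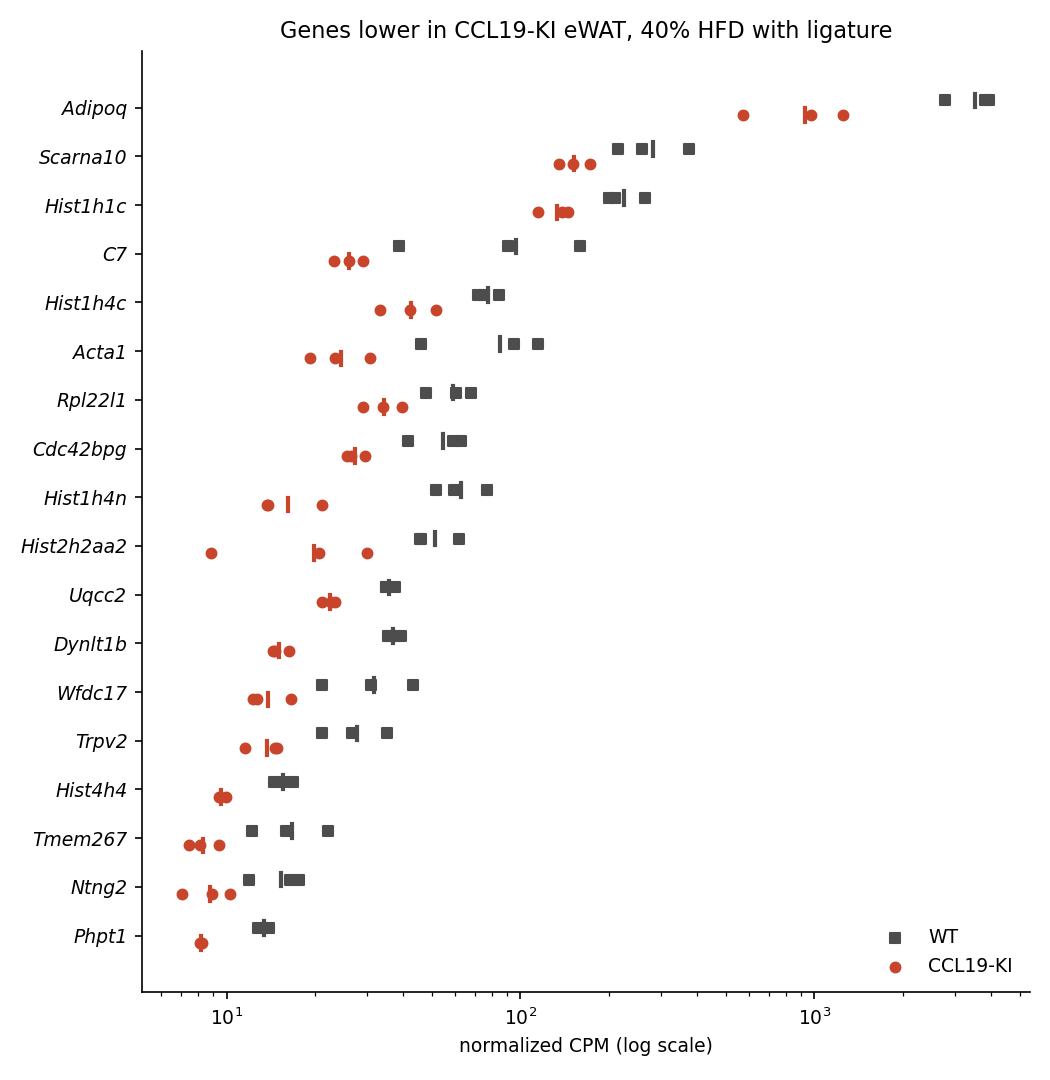
Level of 18 lower DEGs in each of the 6 mice (normalized CPM, log axis), with WT mice as squares, CCL19-KI mice as circles and a tick at each group mean. The groups do not overlap in any of these genes, which were chosen for that or for meeting the criteria whichever mouse was left out, and *C7* and *Acta1* spread more among WT mice than among CCL19-KI mice.

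A set of lower genes was high in WT replicate 1. *C7*, a component of the complement pore, was at 160, 38.5 and 90.8 in WT mice and at 29.2, 23.2 and 26.2 in CCL19-KI mice, a change of -1.63 (SE 0.62, adjusted p of 0.859 in limma). *Acta1*, skeletal alpha-actin, was at 115, 94.8 and 45.8 in WT mice and at 23.4, 19.2 and 30.8 in CCL19-KI mice, a change of -1.68 (SE 0.61). *Ccn2*, a matricellular growth factor, was at 98.4, 28.5 and 44.1 in WT mice and at 13.7, 13.9 and 28.7 in CCL19-KI mice, a change of -1.45 (SE 0.49). None of the 3 was called without WT replicate 1. In that library the smooth muscle genes *Acta2*, *Myh11* and *Actg2* were at 364, 71.1 and 35.5, against at most 229, 15.2 and 1.20 in the other 5, and their part in these results was not tested. Of the 16 smooth muscle and pericyte genes none was called (median -0.43). Of the 19 skeletal muscle genes tested *Acta1* was the 1 lower DEG, against 1.13% of all genes (median 0.03), with *Ckm* at most 1.75 in any library.

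B cell genes had the largest median change of the lists shown, and they rested on WT replicate 2. Of 15 tested, 9 were lower DEGs, against 1.13% of all genes, and 14 had a negative fold change, against 47.9%. The median was -1.23, and 5 (33.3%) were fully separated downward, against 5.58% of all genes, but most were under 10 normalized CPM. *Ms4a1*, which encodes CD20, was at 1.83, 54.5 and 7.38 in WT mice and at 1.05, 2.97 and 0.512 in CCL19-KI mice, a change of -2.25 (SE 0.89, adjusted p of 0.859 in limma), and the groups overlapped. *Cd79a*, a signalling chain of the B cell receptor, was at 1.39, 12.0 and 3.05 in WT mice and at 0.677, 1.06 and 0.439 in CCL19-KI mice, a change of -1.55 (SE 0.49). *Cd79a* and the B lineage factor *Pax5* met the criteria whichever mouse was left out. Without CCL19-KI replicate 1 or 3, 5 of the 15 were lower DEGs. *Ms4a1*, *Cd79b*, *Cr2*, *Blk*, *Mzb1* and *Fcmr* were not called without WT replicate 2. *Cxcl13*, the chemokine that draws B cells into follicles, was at 4.39, 77.7 and 28.8 in WT mice and at 2.86, 4.95 and 0.365 in CCL19-KI mice, a change of -2.89 (SE 1.04) with overlapping groups, and was not called without that mouse either. Without ligature on the 40% HFD, and with ligature on the ND and the 60% HFD, the B cell medians were -0.25, 0.04 and 0.49. No B cell gene had an adjusted p below 0.05 in limma for a difference, whereas 0, 6 and 8 had an unadjusted p below 0.05. For the ligature 681 of 17852 genes tested did so, and the shares of all genes for the diets are not given here.

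**Figure D4:**
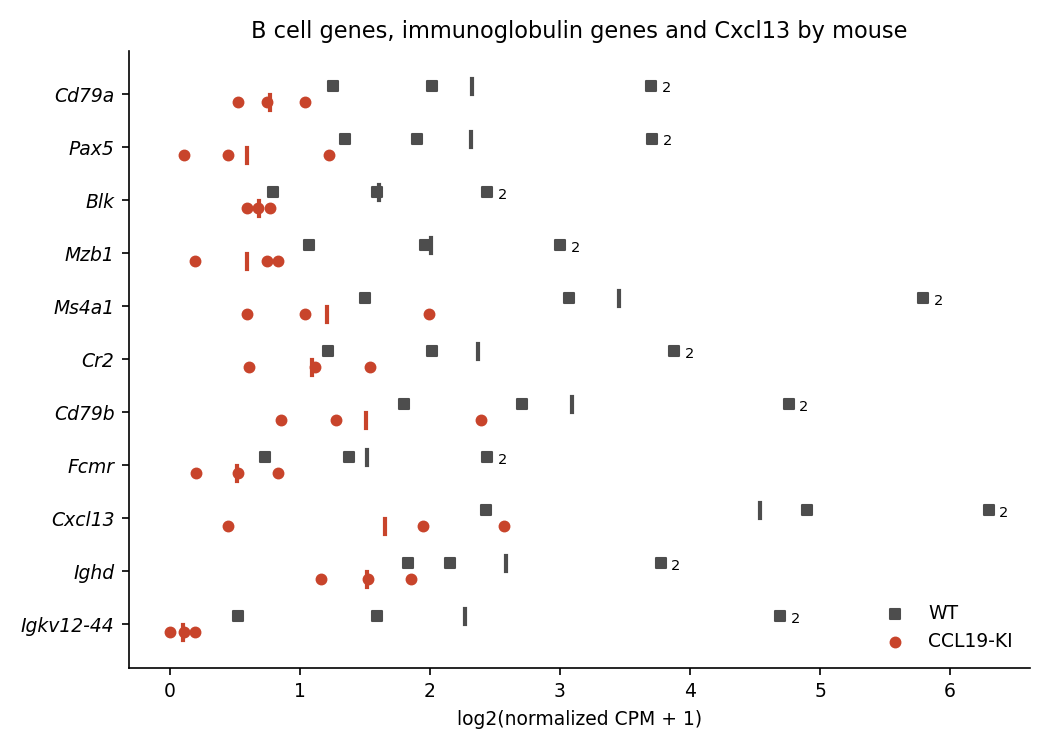
Levels of 8 B cell genes, *Cxcl13* and 2 immunoglobulin genes in each mouse as log2(normalized CPM + 1), with WT mice as squares, CCL19-KI mice as circles, a tick at each group mean and the digit 2 beside WT replicate 2. That mouse is the highest in every gene shown.

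Of 22 immunoglobulin genes tested, *Ighd* and *Igkv12-44* were lower DEGs, against 1.13% of all genes, and the median was -0.61. *Ighd* was not called without WT replicate 2 or without CCL19-KI replicate 3. *Igkv12-44* was at 0.439, 24.9 and 2.01 in WT mice and had at most 2 reads in a CCL19-KI mouse. Its fitted change of -2.17 (SE 0.72) was -0.96 without WT replicate 2, and it shares 55.8% of its 31-base words with other genes, so its assignment is uncertain. *Ighm* was at 176, 284 and 271 in WT mice and at 241, 148 and 218 in CCL19-KI mice, with no call. None of the 18 T and NK cell genes (median 0.04), 16 dendritic cell genes (0.02), 23 macrophage genes (-0.24) or 26 interferon-stimulated genes (-0.03) was a DEG. Outside the macrophage list, *Fcna*, a ficolin of macrophages, was at 151, 149 and 104 in WT mice and at 57.0, 43.8 and 109 in CCL19-KI mice, a change of -1.02 (SE 0.42) with overlapping groups that was not called without WT replicate 1 or 2 or without CCL19-KI replicate 1 or 2. *Spp1*, which encodes osteopontin, was at 1.61, 1.96 and 4.17 in WT mice and at 8.35, 28.0 and 1.02 in CCL19-KI mice, a change of 1.26 (SE 0.93, adjusted p of 0.981 in limma), and the groups overlapped.

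Lower DEGs were shorter than higher DEGs. The median exonic length was 2395 bases for lower and 3898 bases for higher DEGs, against 4136 for all genes tested. With a mean of at least 10 it was 1695 bases for the lower and 5695 bases for the higher DEGs, against 4857 for all genes. Among genes at that level, the 45 of up to 500 bases had a median fold change of -0.50. Of these, 10 (22.2%) were lower DEGs, against 0.824% of all genes at that level. The median was -0.23 for genes of over 500 and up to 1000 bases, -0.12 for genes of over 1000 and up to 2000 bases, and 0.05 for genes over 8000 bases. Without the ribosomal protein genes the first 3 medians were -0.50, -0.20 and -0.11. For genes of up to 500 bases the medians in the other comparisons were -0.08 without ligature on the 40% HFD, -0.13 on the ND and -0.18 on the 60% HFD. In the same order they were -0.20, -0.13 and -0.06 for genes of over 500 and up to 1000 bases. For genes of over 1000 and up to 2000 bases they were -0.19, -0.16 and -0.07, so small negative medians of short genes were not particular to these mice.

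**Figure D5:**
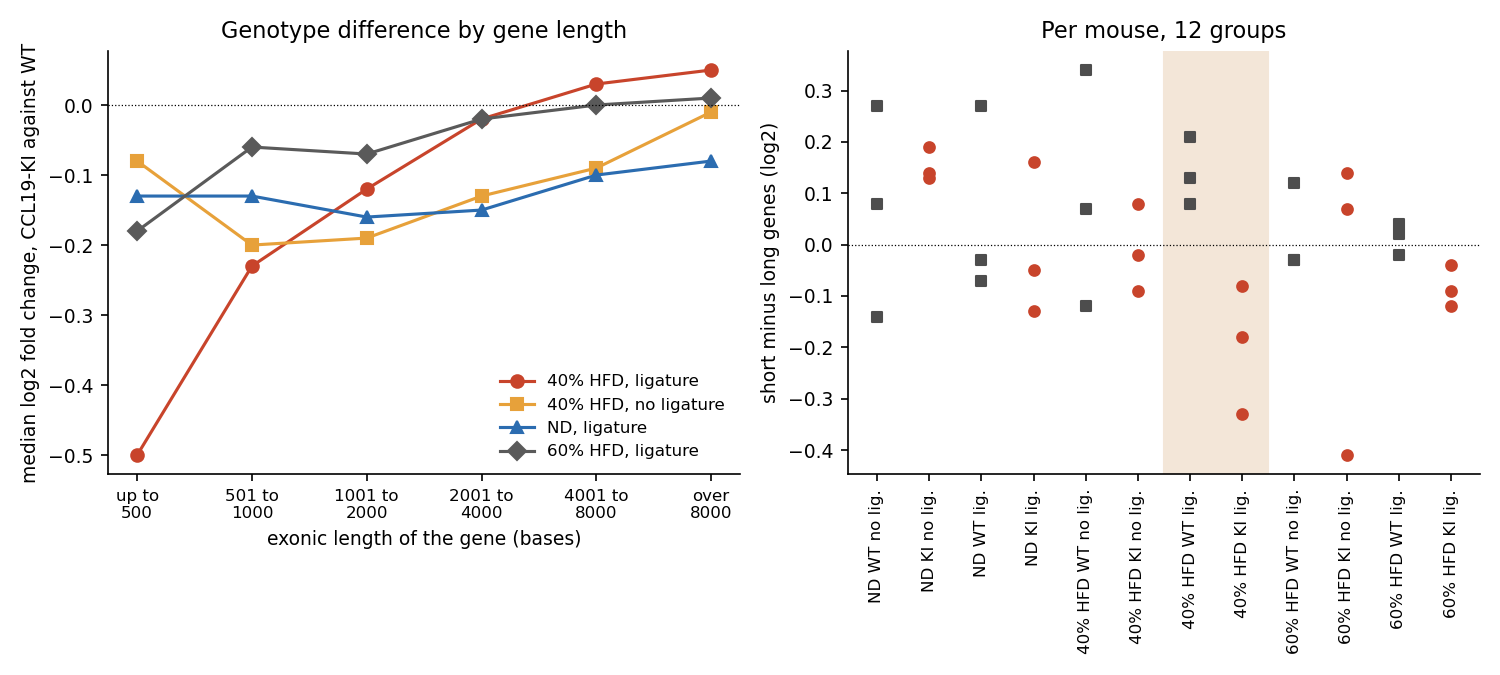
Left, median log2 fold change of CCL19-KI over WT mice by exonic length for genes with a mean of at least 10 normalized CPM in 4 comparisons, and right, for each of the 36 mice, the median log2 deviation of genes of up to 1000 bases minus that of genes over 4000 bases (WT squares, CCL19-KI circles, the compared groups shaded). The line of the ligatured mice on the 40% HFD starts at -0.50 for the shortest genes, and the shaded groups do not overlap.

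For each mouse, the median deviation of 229 genes of up to 1000 bases from their mean over all 36 mice was set against that of 5875 genes over 4000 bases. The difference was 0.08, 0.21 and 0.13 (log2) in WT mice and -0.18, -0.08 and -0.33 in CCL19-KI mice, without overlap. The median deviation of the ribosomal protein genes was 0.07, 0.32 and 0.10 in WT mice and -0.23, -0.11 and -0.37 in CCL19-KI mice, so it followed the same order of groups. The ligatured mice on the 60% HFD did not overlap either, at -0.02, 0.04 and 0.02 in WT and -0.09, -0.04 and -0.12 in CCL19-KI mice. Histone, small RNA and ribosomal protein genes are short, with median exonic lengths of 586, 226 and 1770 bases against 4136 for all genes tested, and the part of gene length in their lower values was not tested.

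Higher genes with a mean of at least 10 were longer and fewer. *Ide*, the insulin-degrading enzyme, was at 81.0, 68.1 and 93.4 in WT mice and at 173, 229 and 174 in CCL19-KI mice, a change of 1.24 (SE 0.16, adjusted p of 0.00479 in limma). It was also higher in ligatured mice on the ND and on the 60% HFD, by 0.86 and 1.07 (adjusted p of 0.00923 and 0.0159), whereas without ligature on the 40% HFD the change was 0.72 (SE 0.29, adjusted p of 0.713) with overlapping groups. *C4b*, a complement component, was at 1210, 955 and 1220 in WT mice and at 1850, 1670 and 1630 in CCL19-KI mice, a change of 0.61 (SE 0.19), was not called without WT replicate 2 or without CCL19-KI replicate 1, and shares 48.3% of its 31-base words with other genes. *Entpd4* was at 24.2, 19.1 and 26.1 in WT mice and at 47.1, 38.7 and 50.0 in CCL19-KI mice, and with its copy *Entpd4b* the sum was 40.0, 30.7 and 39.7 against 71.9, 62.3 and 77.7. *Insig1* and *Irs1*, of sterol sensing and insulin signalling, changed by 0.65 (SE 0.24) and 0.61 (SE 0.24), and *Hspg2*, the basement membrane proteoglycan perlecan, by 0.65 (SE 0.26). None of these 3 was called without WT replicate 2.

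*Naip6*, a sensor of the inflammasome, had at most 2 reads in a WT mouse and was at 5.19, 4.60 and 5.77, or 69, 65 and 79 reads, in CCL19-KI mice (adjusted p of 0.0195 in limma). *Gm16867* had 1, 0 and 3 reads in WT mice and 185, 169 and 127 reads in CCL19-KI mice (adjusted p of 0.0254 in limma). *Naip6* shares 35% and *Gm16867* 93.7% of their words with other genes, so the assignment of their reads is uncertain. *Srp54b*, a signal recognition particle subunit, was at 15.7, 0.696 and 16.9 in WT mice and at 55.1, 40.9 and 51.5 in CCL19-KI mice. It shares 89.9% of its words with other genes, and the sum of *Srp54a*, *Srp54b* and *Srp54c* was 115, 133 and 131 in WT mice and 183, 160 and 171 in CCL19-KI mice. One of the 2 annotated *Nnt* genes was called higher (2.18, SE 0.79), though not without WT replicate 3, and the sum of both was 26.3, 22.5 and 36.0 in WT mice and 31.1, 51.2 and 29.8 in CCL19-KI mice, with overlap.

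The lower DEGs were then read in mice that share none of the 6 libraries. Of the 188, 110 (58.5%) were also lower without ligature on the 40% HFD, where 57.5% of all genes were lower, and 7 met the criteria in that direction. In ligatured mice on the ND 84 (44.7%) were lower, against 53.8% of all genes, and 8 met the criteria. On the 60% HFD with ligature 85 (45.2%) were lower, against 50.5%, and 9 met the criteria. *Dynlt1b* and *Adipoq* were the 2 lower DEGs with an adjusted p below 0.05 in the same direction in another diet, the ND. Of the 72 higher DEGs, 52 (72.2%) were higher without ligature on the 40% HFD against 42.4% of all genes, 43 (59.7%) on the ND against 46.2%, and 46 (63.9%) on the 60% HFD against 49.5%. The criteria were met in that direction by 13, 7 and 17 of them. A fit of all 36 mice tested 17852 genes for a difference in the genotype effect between ligatured and unligatured mice on the 40% HFD. In limma 0 of them had an adjusted p below 0.05, and 681 of the 17852 had an unadjusted p below 0.05.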

How the data were processed

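Gene expression was measured by RNA-seq in eWAT of 36 mice, of which 6 are described. Per the submitters' processing notes, the authors trimmed the paired-end, directional reads with Trimmomatic 0.38, estimated gene levels with RSEM 1.3.0 and Bowtie2 and normalized them with edgeR. The notes name GRCm39 and the study's methods name mm10, with the annotation release not given in the sources used here. The deposited normalized CPM values form a signal per gene whose column sums differ (937499 to 1137685 in the 6 libraries).

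limma 3.58.1 was fitted on log2(normalized CPM + 1) for genes with at least 1 in at least 3 of the 18 ligatured mice, with 6 groups and a trend, so fold changes of low genes are understated. Each library is 1 mouse, so p-values measure the spread between mice. Differences from unligatured mice used a fit of all 36. Whole reads were recovered for edgeR 4.0.16 as an alternative, and other alternatives changed the pseudocount, filter, scaling, weights, block, mice in the fit or left out 1 mouse. Scripts were tested on simulated data. Floors of 3 reads cover counting error only. Gene names and lengths came from GENCODE M21 (GRCm38), which lacks 116 of 24750 IDs, and start windows from RefSeq. Shared words are 31-base stretches found in transcripts of another gene. Named genes were those with an adjusted p below 0.05, the 15 largest falls and 8 largest rises with a mean of at least 10 and separated groups, called members of 55 lists (up to 4 values each), *Adipoq*, *Ccl19* and *Spp1*, and the 15 most abundant lower genes that met the criteria whichever mouse was left out. *Rpl10*, *Rpl7l1*, *Bag1*, *Enpp2*, *Ccn2*, *Fcna*, *Pet100*, *Ighm*, *Retn*, *Cfd*, *Plin1*, *Lep*, *Cidec*, *Fabp4*, ENSMUSG00002076161 and the copies of named genes were chosen after their values were seen. The values of 1 listed gene are not reported here. The members and lists were chosen with earlier results of these data known.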

Additional observations from a re-analysis of the deposited data

Results flagged for a closer look

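The genotype effect of 10 DEGs differed between ligatured mice on the 40% HFD and on the ND by a test of the difference itself in limma over 18 mice (adjusted p below 0.05 over all genes), and each had the opposite sign in the 2 diets. All are below 10 normalized CPM in their mean over the 6 mice on the 40% HFD. They are 8 of the 188 lower and 2 of the 72 higher DEGs. Being picked among DEGs of mice that also enter this test, they were selected in favour of a difference. The share of all genes with an adjusted p below 0.05 for this difference is not given here. *Pappa* had a log2 fold change of -0.79 on the 40% HFD and 1.89 on the ND, a difference of -2.68 (SE 0.48, adjusted p of 0.018). Its level on the ND was 0.965, 2.08 and 3.25 in WT mice and 11.5, 12.3 and 6.92 in CCL19-KI mice. *Rnu3a* changed by -2.18 and 1.01, a difference of -3.19 (SE 0.61, adjusted p of 0.0286), and was at 0, 1.27 and 1.24 in WT mice and at 4.23, 1.96 and 1.65 in CCL19-KI mice on the ND. The glutamate receptor subunit *Gria4* differed by -2.78 (adjusted p of 0.00203), the melanosome linker *Mlph* by -3.18 (0.0162), the Notch regulator *Dtx1* by -2.40 (0.00974), *Samd5* by -2.58 (0.0447), *Csmd1* by -2.35 (0.0055) and *Hrasls* by -1.66 (0.0471). In the opposite direction, *Scand1* differed by 2.12 (0.0243) and the zinc finger gene *Zfp771* by 1.90 (0.00203). *Zfp771* was at 3.37, 3.23 and 2.97 in WT mice and at 7.00, 6.43 and 4.31 in CCL19-KI mice on the 40% HFD, and at 11.0, 11.6 and 10.4 and at 3.49, 4.48 and 4.84 on the ND, so WT mice differed between the diets as well.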

How the results depend on the processing

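The 188 lower and 72 higher DEGs and the 7 genes with an adjusted p below 0.05 depended on the scale and the mice. With a pseudocount of 0.1 there were 143 higher DEGs. With a pseudocount of 5 there were 78 lower and 29 higher, with 51 lower at a mean of at least 10. A filter at a mean of 10 left 81 lower, 26 higher and 4 adjusted calls. edgeR on recovered reads gave 312 lower and 128 higher. Sample quality weights gave 409 lower DEGs, 299 higher and 17 adjusted calls, with 133 lower and 79 higher at a mean of at least 10. A fit of the 6 mice gave 4 adjusted calls, and a fit of all 36 mice gave 2, with 17 higher at a mean of at least 10. Leaving out 1 mouse gave 140 to 304 lower, 85 to 253 higher and 5 adjusted calls, with 55 to 116 lower and 24 to 76 higher at a mean of at least 10. Lower DEGs were 304 without WT replicate 3. Higher DEGs were 253 without WT replicate 2, 172 without CCL19-KI replicate 3, 122 without WT replicate 1 and 120 without WT replicate 3. The cause was not tested. Of 1389 values of the 89 named genes under the alternatives, 1164 kept their side of the criteria, 223 lost the call, 2 gained it and 0 changed sign, and without WT replicate 2, 47 lost it. The medians of 4 lists, added after seeing the data, ranged with 1 mouse left out from -0.32 to -0.47 (ribosomal proteins), -0.28 to -0.60 (histones), -0.48 to -0.91 (small RNAs) and -0.54 to -1.86 (B cell). The adipocyte identity median of -0.08 was -0.20 without WT replicate 2, 0.10 with sample quality weights, 0.10 without CCL19-KI replicate 2 and 0.11 without WT replicate 3. Replicate numbers did not pair the mice (same-number correlations of -0.0605, -0.67 and -0.68), and with the replicate block there were 191 lower and 71 higher DEGs and 7 adjusted calls. Below 1 normalized CPM, a value rests on fewer than 16 reads.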
